A study of Mus musculus with 6 samples.

Results

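The S100 proteins, annexins and galectins considered here, together with the scaffold AHNAK, were followed in regulatory T cells (Tregs), a CD4 T cell lineage that holds immune responses in check. The members were chosen by symbol and were S100a4, S100a6, S100a10, S100a11, Anxa1, Anxa2, Anxa6, Lgals1, Lgals3 and Ahnak. All 10 were found among the 23725 genes of the deposited tables. The study compared Tregs of mice lacking myelin oligodendrocyte glycoprotein (MOG) in the whole animal (MOG KO, 3 libraries) with Tregs of wild-type mice (WT, 3 libraries). Donors of both genotypes were C57Bl/6 mice immunised with MOG, so the immunisation was shared by the groups and the absence of the endogenous protein was not. Cells came from lymph nodes, and each library was made from the RNA of 500 cells. The sources used here do not give the age of the mice, the way Tregs were sorted or whether a replicate was 1 mouse, and the p-values cover only the spread between these libraries, which may be technical in part.

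S100 proteins are small calcium-binding proteins that change shape on binding calcium and dock onto partner proteins. Annexins bind phospholipid membranes in the presence of calcium, and several S100 proteins bind annexins, which links membranes to the cell cortex. Galectins are lectins that bind galactose-containing sugars on surface glycoproteins. In T cells, transcripts of these families are generally more abundant in effector and memory states, Tregs included, than in naive cells.

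The 4 S100 genes lie on mouse chromosome 3 (GRCm38, the assembly behind mm10), all on the plus strand. S100a4 (Entrez 20198, 90603771 to 90606045) and S100a6 (20200, 90612882 to 90624181) are neighbours with 6836 bases between them. S100a11 (20195, 93520488 to 93526287) and S100a10 (20194, 93555080 to 93564643) lie with 28792 bases between them. The stretches before the transcription starts of 3 of these genes and of Lgals3 are shown because these genes were read so differently across the libraries. S100a6 was even, S100a11 varied severalfold, and S100a4 and Lgals3 were near 0 in some libraries. Each is the RefSeq promoter sequence (GRCm38.p6, plus strand) from 250 bases before the RefSeq start, ended before the first annotated exon, and capitals mark matches to the motifs described next. The RefSeq start used for Lgals3 lies downstream of the start of the gene as annotated in GENCODE (47367751 to 47386160). Its stretch is therefore inside that gene span and not upstream of all of it.
S100a4, chr3:90603520-90603769: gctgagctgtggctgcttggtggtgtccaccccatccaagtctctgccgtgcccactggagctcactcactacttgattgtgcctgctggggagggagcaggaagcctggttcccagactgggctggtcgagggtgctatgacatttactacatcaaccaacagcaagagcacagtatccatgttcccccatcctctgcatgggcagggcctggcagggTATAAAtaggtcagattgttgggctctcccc
S100a6, chr3:90612644-90612881: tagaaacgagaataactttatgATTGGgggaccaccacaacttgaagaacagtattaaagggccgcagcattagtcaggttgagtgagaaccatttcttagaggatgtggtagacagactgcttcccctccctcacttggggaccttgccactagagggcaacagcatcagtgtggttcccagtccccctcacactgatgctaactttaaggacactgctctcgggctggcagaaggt
S100a11, chr3:93520246-93520487: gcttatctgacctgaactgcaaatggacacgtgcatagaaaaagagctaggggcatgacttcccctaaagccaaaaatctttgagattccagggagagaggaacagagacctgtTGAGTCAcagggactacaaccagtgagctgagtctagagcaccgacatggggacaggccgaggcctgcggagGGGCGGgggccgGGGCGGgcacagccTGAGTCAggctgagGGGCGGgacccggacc
Lgals3, chr14:47373610-47373812: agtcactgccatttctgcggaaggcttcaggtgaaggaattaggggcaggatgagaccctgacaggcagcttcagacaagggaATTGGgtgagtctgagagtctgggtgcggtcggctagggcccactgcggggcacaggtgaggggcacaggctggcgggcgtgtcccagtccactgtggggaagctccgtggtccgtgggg

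The motifs searched, on both strands, were TATAAA (the TATA box), GGGCGG (the GC box), CCAAT (the CCAAT box) and TGANTCA (the core of AP-1 sites), and 7 members had a promoter in the RefSeq table. TATAAA occurred within 250 bases before the start in 3 of the 7 (S100a4, Anxa1 and Anxa2), against 12.4% of 32851 mouse promoters. In S100a4 it lay from 31 to 26 bases before the start, while no TATAAA was found in the window of its neighbour S100a6. In Anxa2 TATAAA lay from 17 to 12 bases before the start, and only the first 187 bases of that window precede an annotated exon. The window of Anxa1 begins inside an annotated exon. GGGCGG occurred in 4 of the 7 (S100a11, Anxa2, Lgals3 and Ahnak), against 32.7% of all promoters, and 3 times in S100a11. The match in Lgals3 lies from 7 to 2 bases before the start, in the annotated exon left out of the stretch shown. TGANTCA occurred in S100a11, at 2 places, and in Anxa2, against 6.75% of all promoters. CCAAT occurred in S100a6 and Lgals3, against 33.8%. The window of Lgals3 had 66% G and C and that of S100a4 57.2%, against a median of 52.4%. These matches describe letters and not binding.

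The remaining members are spread over other chromosomes. Anxa1 (Entrez 16952) lies on chromosome 19 from 20373428 to 20390944 on the minus strand, and Ahnak (66395) on the same chromosome from 8989284 to 9076914. Anxa2 (12306) lies on chromosome 9 from 69453620 to 69491795, Anxa6 (11749) on chromosome 11 from 54979108 to 55033445 on the minus strand, Lgals1 (16852) on chromosome 15 from 78926725 to 78930465 and Lgals3 (16854) on chromosome 14 from 47367751 to 47386160. All 10 members are protein-coding. A predicted gene on the same strand, Gm42674, shares 51.7% of the exon bases of S100a4, an antisense gene shares 2.63% of those of Anxa2, and processed pseudogenes of S100a11 and Lgals1 are annotated, so reads of these members may be shared or lost in a way the sources used here do not describe.

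Gene counts totalled 3450623 to 4361315 in the MOG KO libraries and 2717969 to 4472549 in the WT libraries. Values are in reads-per-million (RPM), in the order of replicates 1, 2 and 3. Presence in a library means at least 10 RPM there. The limit that a count of 0 allows, 3 counts, was 0.688 to 0.869 RPM in MOG KO and 0.671 to 1.1 RPM in WT, which covers counting error only. The label of the cells was checked on markers. Foxp3, Il2ra, Ctla4 and Ikzf2 were present in every library, except Foxp3 in WT replicate 3 (8.22 RPM). WT replicate 3 stood apart from the other libraries in more than Foxp3. Its 5 T cell markers summed to 720.0 RPM, against 1921 to 2172 RPM in MOG KO and 1701 and 2229 RPM in the other WT libraries. Cd3g (1.42 RPM), Cd4 (170 RPM), Lck (146 RPM) and the Treg marker Ctla4 (74.3 RPM) were at their lowest there. In contrast, Cd3e (273 RPM), Cd3d (130 RPM) and Il2ra (708 RPM) lay within the range of the other libraries. Ikzf2 (1294 RPM) was at its highest in that library. WT replicate 3 also had the smallest number of genes present (2701, the others 3265 to 4440). Cd8a and Cd8b1 had 0 counts in every library, and the neutrophil genes S100a8 and S100a9 reached at most 0.736 RPM. The targeted gene, Mog, is a gene of myelin-forming cells. It had 0 counts in all 3 MOG KO libraries and 1, 0 and 0 counts in the WT libraries, so these T cell data give no check of the genotype through it.

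Most members were read in every library of both genotypes. 7 of the 10 members were present in all 6 libraries, S100a6, S100a10, S100a11, Anxa2, Anxa6, Lgals1 and Ahnak, where 2.97% of all genes in the table were. Among the 3014 genes with a mean of at least 100 RPM, 21.6% were present in all 6, and all 7 members of that level were. The coefficient of variation (CV, the SD over the mean) across the 6 libraries was under 30% for 5 of these 7, and for 5.94% of the 3014 genes, whose median CV was 106%. S100a4 was present in 5 libraries, Lgals3 in 2 and Anxa1 in 1. Members present numbered 8, 8 and 9 in the MOG KO libraries and 8, 8 and 9 in the WT libraries. In bulk samples such as these, fewer cells of a type and less RNA per cell cannot be told apart.

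**Figure D1:**
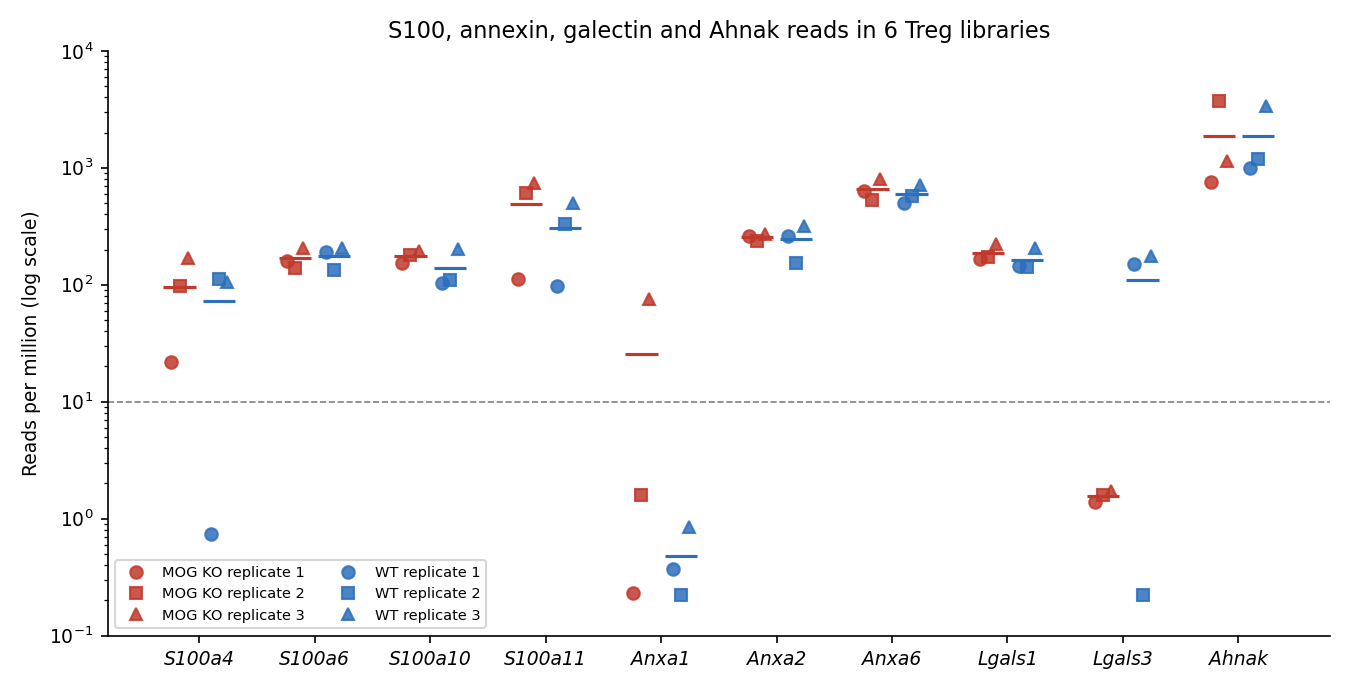
RPM (log axis) of the 10 genes in 3 MOG KO libraries (red) and 3 WT libraries (blue), with 1 point per library, horizontal lines for group means and a dashed line at 10 RPM. S100a6, S100a10, Anxa2, Anxa6 and Lgals1 span at most 2.05-fold over the 6 libraries, while S100a4, Anxa1 and Lgals3 have libraries near 0.

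**Figure D2:**
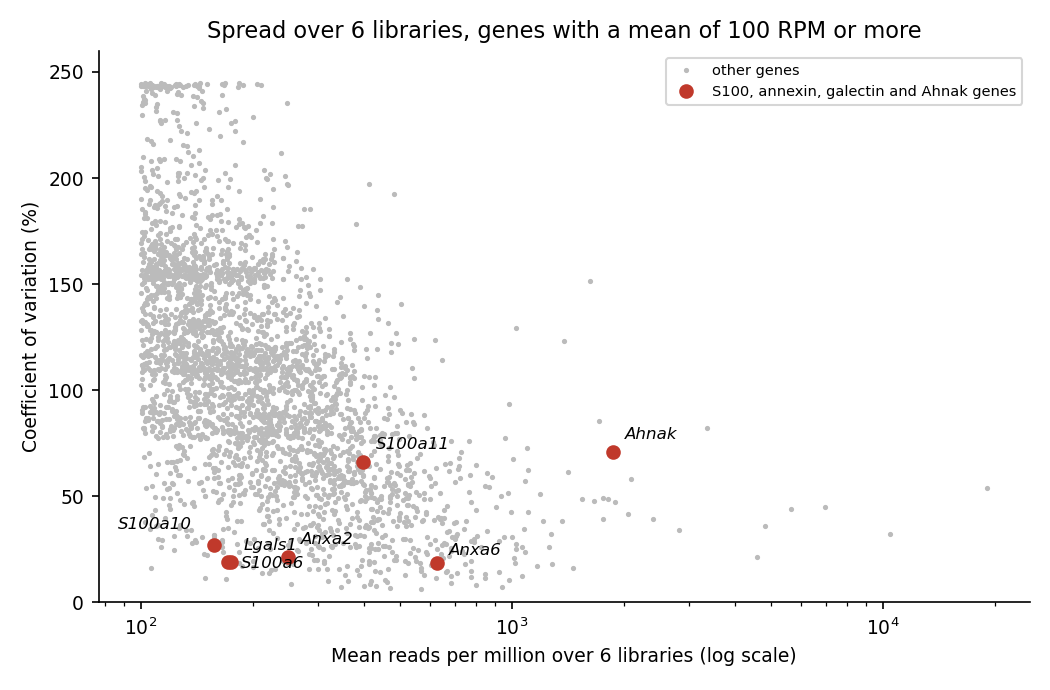
CV over the 6 libraries in percent against mean RPM (log axis) for the 3014 genes with a mean of 100 RPM or more, each gene a point and the 7 members of that level in red. S100a6, S100a10, Anxa2, Anxa6 and Lgals1 have CVs of 18.6% to 26.9%, S100a11 66.3% and Ahnak 71.1%, and the median gene 106%.

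S100a10, also called p11, is the light chain of a complex with annexin A2 and, unlike other S100 proteins, does not need calcium to bind it. S100a10 had 153, 181 and 193 RPM in MOG KO Tregs, against 103, 110.2 and 202 RPM in WT Tregs. The highest library was a WT one, so the groups overlapped, with means of 176 ± 20.2 RPM in MOG KO and 138 ± 54.8 RPM in WT (SD, n = 3 each). The log2 fold change of MOG KO over WT was 0.25 ± 1.61 (SE, edgeR's quasi-likelihood test, 95% interval -3.45 to 3.96). Anxa2, its partner, had 261, 235 and 272 RPM in MOG KO and 259, 155 and 317 RPM in WT. The lowest and the highest Anxa2 value were both in WT libraries, and the means of 256 ± 19.2 RPM in MOG KO and 244 ± 82.3 RPM in WT (SD, n = 3 each) differed by less than the SD of either group. Its log2 fold change was -0.016 ± 1.35 (SE, 95% interval -3.14 to 3.11). The RPM of S100a10 over that of Anxa2, a ratio not corrected for length, was 0.588, 0.771 and 0.709 in the MOG KO libraries and 0.4, 0.712 and 0.635 in the WT libraries, again with overlap.

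S100a6, also called calcyclin, had 159, 140.3 and 205 RPM in MOG KO Tregs, against 189.8, 132 and 206 RPM in WT Tregs. It was the least spread of the S100 genes, with a 1.56-fold span between the lowest and the highest library, both WT. Its means were 168 ± 33.4 RPM in MOG KO and 176 ± 38.7 RPM in WT (SD, n = 3 each), and its log2 fold change was -0.14 ± 1.56 (SE, 95% interval -3.74 to 3.46). S100a4, which binds non-muscle myosin and is linked to cell motility, had 21.7, 97.9 and 169 RPM in MOG KO Tregs, against 0.736, 113 and 106 RPM in WT Tregs. WT replicate 1 had 2 S100a4 counts, within the limit that a count of 0 allows, and MOG KO replicate 1 was the next lowest library with 94 counts. S100a6, the neighbouring gene, had 516 and 689 counts in those same libraries. The means of S100a4 were 96.2 ± 73.6 RPM in MOG KO and 73.1 ± 62.7 RPM in WT (SD, n = 3 each), with a log2 fold change of 0.34 ± 2.09 (SE, 95% interval -4.54 to 5.22).

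S100a11, a binding partner of annexin A1, had 113, 608 and 741 RPM in MOG KO Tregs, against 96.8, 332 and 495 RPM in WT Tregs. S100a11 was low in MOG KO replicate 1 and WT replicate 1, the libraries in which S100a4 was also lowest, and severalfold higher in the other 4. Of the 9 pairs of a MOG KO and a WT library, the MOG KO one was higher in 7, and the groups overlapped. The means were 488 ± 331 RPM in MOG KO and 308 ± 200.02 RPM in WT (SD, n = 3 each). Its log2 fold change of 0.59 ± 1.09 (SE, 95% interval -1.94 to 3.12) was the largest in size among the 8 members tested and had the smallest unadjusted p, 0.603 in edgeR. The RPM of S100a11 over that of S100a10 was 0.736, 3.36 and 3.85 in the MOG KO libraries and 0.936, 3.01 and 2.45 in the WT libraries, so the ratio between these neighbours ranged widely within each genotype and the groups overlapped.

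Among the annexins, Anxa6, a member with a duplicated annexin core that acts at endosomes and the plasma membrane, was the most evenly read, with a CV of 18.6%. Anxa6 had 629, 530.1 and 804 RPM in MOG KO Tregs, against 501, 574 and 719 RPM in WT Tregs. The means were 654 ± 139 RPM in MOG KO and 598 ± 111 RPM in WT (SD, n = 3 each), with a log2 fold change of 0.06 ± 0.5 (SE). The 95% interval, -1.09 to 1.2, was the narrowest of the members. Anxa1, whose protein damps inflammation through formyl peptide receptors, had 0.231, 1.61 and 75.1 RPM in MOG KO Tregs, against 0.368, 0.224 and 0.85 RPM in WT Tregs. Anxa1 was present in MOG KO replicate 3 alone, with 259 counts, and the other 5 libraries had 1 to 7 counts. Anxa1 stayed under the filter on low counts and was not tested in the main model. Without that filter its log2 fold change was 5.49 ± 4.33 (SE, adjusted p = 0.567 in edgeR), a value resting on 1 library.

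Lgals1 encodes galectin 1, a lectin that T cells secrete and that takes part in suppression by Tregs. Lgals1 had 165, 173 and 224 RPM in MOG KO Tregs, against 143, 141 and 205 RPM in WT Tregs. The MOG KO library was higher in 7 of 9 pairs, and the groups overlapped because WT replicate 3 lay above 2 of the MOG KO libraries. The means were 187 ± 32.3 RPM in MOG KO and 163 ± 36.1 RPM in WT (SD, n = 3 each), with a log2 fold change of 0.12 ± 1.55 (SE, 95% interval -3.46 to 3.7).

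Lgals3 encodes galectin 3, which is abundant in macrophages and is induced in activated T cells. Lgals3 had 1.39, 1.61 and 1.74 RPM in MOG KO Tregs (6, 7 and 6 counts), against 150.5, 0.224 and 177 RPM in WT Tregs (409, 1 and 623 counts). WT replicates 1 and 3 were high, and WT replicate 2 was the lowest of all 6 libraries, so the groups overlapped. The means were 1.58 ± 0.178 RPM in MOG KO and 109 ± 95.2 RPM in WT (SD, n = 3 each). With 2 libraries above the filter Lgals3 was not tested in the main model. Without the filter its log2 fold change was -6.14 ± 4.07 (SE, adjusted p = 0.51 in edgeR). DESeq2 put it past the threshold (-6.54 ± 2.25, adjusted p = 0.027), in a fit that called 744 of 4677 genes (15.9%), and 10.1% as lower in MOG KO. Over the edgeR fits in which Lgals3 could be tested, which leave out the filter or 1 library, the adjusted p was 0.51 to 0.784. The RPM of Lgals3 over that of Lgals1 was 0.0084, 0.0093 and 0.00775 in the MOG KO libraries and 1.05, 0.00158 and 0.862 in the WT libraries.

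Lgals3 is also abundant in macrophages, monocytes and dendritic cells, so the markers of these cells were read beside it. These markers summed to less than Lgals3 in WT replicates 1 and 3, and to more in each other library. Their summed level over 8 genes was 6.24, 195 and 15.4 RPM in MOG KO and 23.9, 6.93 and 14.2 RPM in WT, and 1 of the 8 was present in any library, Cd68 at 188 RPM in MOG KO replicate 2. Lyz2 had 3.47, 3.21 and 6.96 RPM in MOG KO and 9.57, 2.91 and 7.37 RPM in WT. Red cell genes summed to 8.09, 11.9 and 32.5 RPM in MOG KO and 41.9, 6.71 and 51.3 RPM in WT over 3 genes, and so were highest in the WT libraries that held Lgals3. The part of either set of genes in the Lgals3 values was not tested. Of the 7 stromal and endothelial markers only Pecam1, which T cells also express, was present, and the 5 B cell markers summed to 0, 129.8 and 1.16 RPM in MOG KO and 2.21, 206 and 87.3 RPM in WT.

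Ahnak encodes a giant scaffold protein that binds the S100A10 and annexin A2 complex and supports calcium entry in T cells. Ahnak had 749.9, 3724 and 1149.6 RPM in MOG KO Tregs, against 986, 1187 and 3399 RPM in WT Tregs. MOG KO replicate 2 and WT replicate 3 stood severalfold above the other 4 libraries, and each genotype held 1 of them. The means, 1875 ± 1614 RPM in MOG KO and 1858 ± 1339 RPM in WT (SD, n = 3 each), differed by far less than the SD, and the log2 fold change was -0.089 ± 0.73 (SE, 95% interval -1.78 to 1.61). The value of Ahnak depended on single libraries, with a log2 fold change of -1.1 without MOG KO replicate 2 and 0.83 without WT replicate 3. The 10 members together took 0.225%, 0.569% and 0.384% of all counts in MOG KO and 0.243%, 0.274% and 0.583% in WT. Without Ahnak they summed to 1504, 1968 and 2686 RPM in MOG KO and 1444, 1558 and 2426 RPM in WT.

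Across the comparison of MOG KO with WT, 0 of the 8 members tested passed an adjusted p of 0.05 in edgeR, where 0.0% of all 4088 genes tested did, and the adjusted p was 1 for each when rounded. At an unadjusted p under 0.05 there were 0 members, against 5.11% of all genes tested, and in limma-voom 0 members passed. 5 of the 8 had positive and 3 negative log2 fold changes, where 52.1% of all genes tested were positive, and the median was 0.09, against 0.06 over all genes tested. 0 of the 10 members had groups that did not overlap, against 10.5% of genes tested. An exact two-sided permutation test of the difference of mean RPM, whose smallest possible p is 0.1 with 3 against 3 libraries, gave p of 0.3 to 1 over the 10 members, and 1 for each after Benjamini-Hochberg adjustment over the 10.

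**Figure D3:**
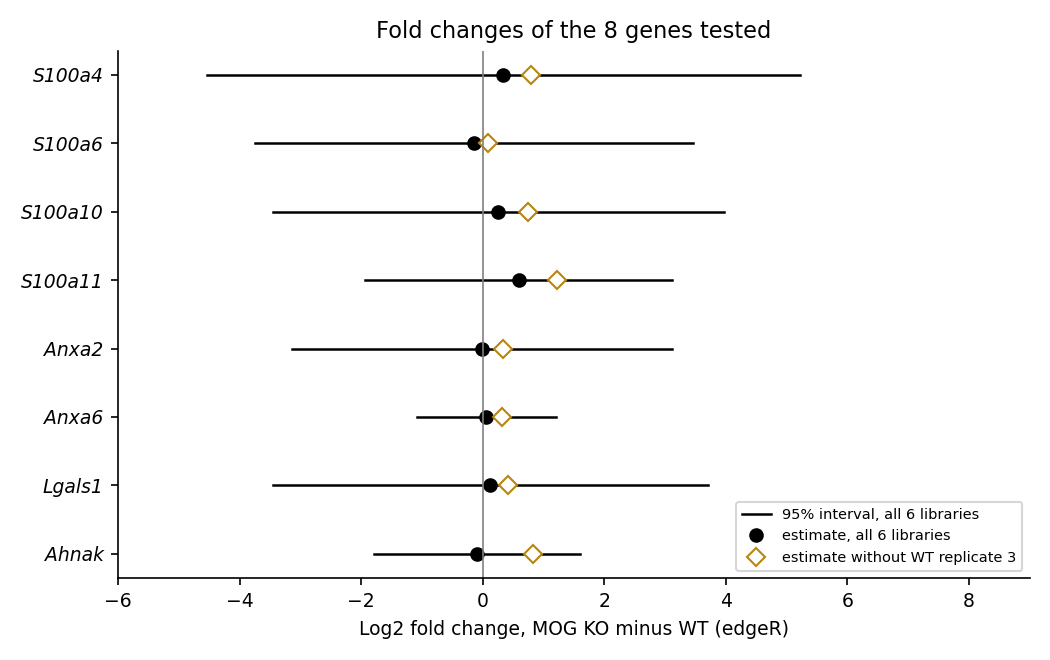
Log2 fold changes of MOG KO over WT for the 8 members tested, with filled circles and lines for the edgeR estimate and its 95% interval over 6 libraries and open diamonds for the estimate without WT replicate 3. Every interval includes 0, and all 8 diamonds are positive, from 0.08 for S100a6 to 1.22 for S100a11. Of the fits that leave out a single library, the one drawn had the highest median.

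A p that misses the threshold does not show that levels were alike, since the intervals of most members include changes of several fold. Without WT replicate 3, the library with the lowest sum of T cell markers, all 8 values were positive. Their median was 0.58, against 0.15 over all genes tested, and 0 of 5492 genes passed. That library held the highest WT value in RPM of every member tested except S100a4. Leaving out any other single library gave lower medians, from -0.073 without MOG KO replicate 3 to 0.24 without MOG KO replicate 1. edgeR draws each gene's spread towards that of genes of like level. The negative binomial dispersions of its fit correspond to CVs of 99.3% to 192% for the 8 members, while their own CVs over the 6 libraries were 18.6% to 73.8%. The quasi-likelihood test scales each gene's dispersion by a further factor, so the SEs and intervals do not rest on those fitted CVs alone.

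Levels of different genes were compared per length, as RPM per kilobase of the union of their GENCODE M21 exons, averaged over the 6 libraries. S100a11 was highest at 778 ± 516, followed by Anxa6 at 214 ± 39.8, Lgals1 at 194 ± 36.9, S100a4 at 145 ± 107 and S100a10 at 129.6 ± 34.8 RPM per kilobase (SD, n = 6 libraries). S100a6 stood at 126 ± 23.9, Ahnak at 93.6 ± 66.5, Anxa2 at 66.9 ± 14.4, Lgals3 at 29.8 ± 45.3 and Anxa1 at 4.49 ± 10.4 RPM per kilobase. S100a11 was above Anxa6 in 6 of 6 libraries and Anxa6 above Lgals1 in 5 of 6. Each other neighbouring pair was in that order in 3 to 5 libraries, and the ranges of every neighbouring pair overlapped. Ahnak, the highest member in RPM, was thus in the lower part of the order per length, its exons spanning 19938 bases against 511 for S100a11. The exons annotated for S100a6 include a transcript that runs on beyond the gene's usual end, which lowers its level per length.

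Fewer of the members' relatives were present in every library. Of 9 other annexins 4 were present in at least 1 library and 1, Anxa11, in all 6, of 14 other genes with S100 symbols 3 and 0, and of 8 other galectin symbols 4 and 0. Anxa5, whose protein binds phosphatidylserine, had 302, 1.15 and 424 RPM in MOG KO and 174, 0.671 and 365 RPM in WT. Anxa4 had 0.462, 0.688 and 437 RPM in MOG KO and 2.94, 27.9 and 570.0 RPM in WT. For both genes the high libraries belonged to both genotypes. Anxa7 had 364, 0.459 and 345 RPM in MOG KO and 269, 337 and 0.567 RPM in WT, and Anxa11 174, 169 and 12.2 RPM in MOG KO and 74.3, 52.1 and 404 RPM in WT. S100a13 was the 1 tested gene of its list, at 55.5, 0.229 and 130.4 RPM in MOG KO and 106, 88.8 and 141 RPM in WT. S100pbp and S100g, present in WT replicate 1 alone at 65.1 and 16.2 RPM, were the other 2, and S100pbp encodes a binding protein and no S100 protein.

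Lgals9, whose protein galectin 9 is a ligand of the inhibitory receptor TIM-3, had 246, 245 and 332 RPM in MOG KO and 232, 276 and 2.83 RPM in WT. Lgals8 had 4.16, 5.04 and 560.2 RPM in MOG KO and 336, 256 and 0.85 RPM in WT. Lgals4 was present in MOG KO replicate 3 at 234 RPM and in WT replicate 2 at 46.1 RPM. Lgals3bp, a secreted glycoprotein that binds galectin 3, reached 14.5 RPM in WT replicate 3. None of the 4 annexins, 2 galectins and 1 S100 gene tested passed in edgeR, with positive values for 2, 1 and 0 of them, and medians of -0.19, 0.34 and -0.93, against 0.06 over all genes.

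**Figure D4:**
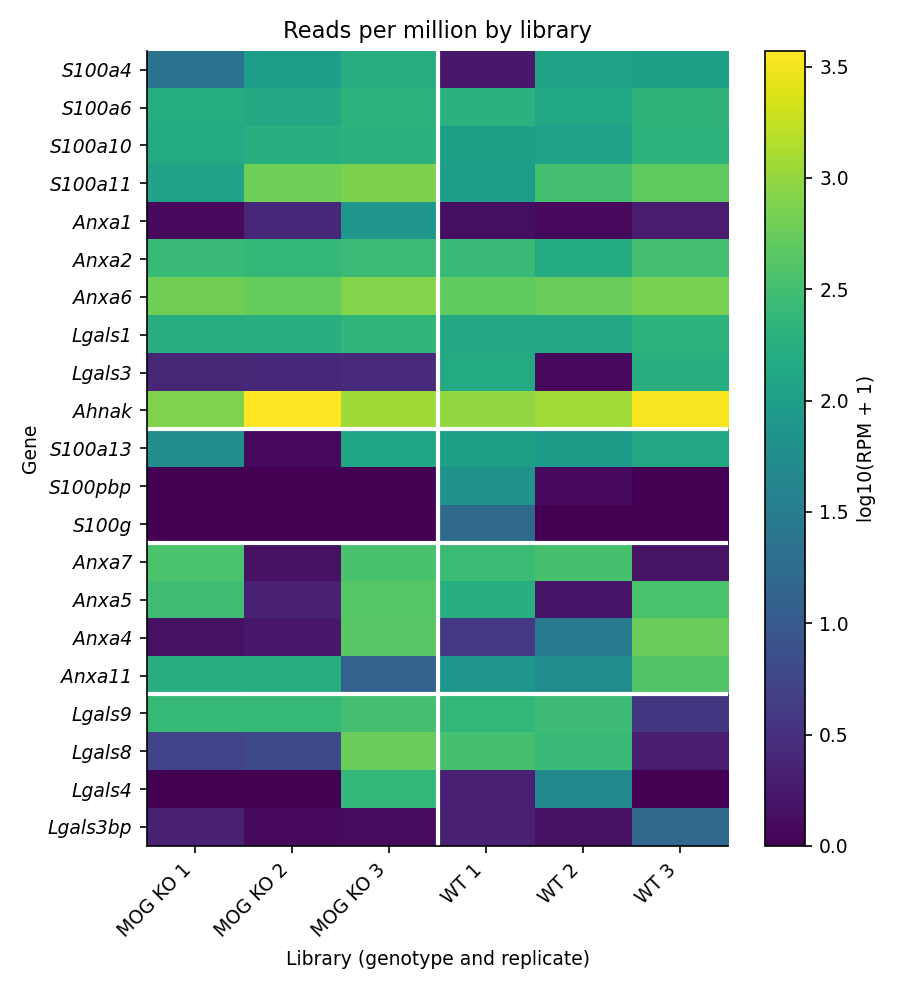
Heat map of log10(RPM + 1) in the 3 MOG KO and 3 WT libraries (columns) for the 10 members (top block) and for the other S100, annexin and galectin symbols present in at least 1 library (lower blocks). Most relatives are above 100 RPM in some libraries and near 0 in others of the same genotype, whereas 7 of the 10 members are read in all 6.

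Partners of the members were considered as a list of 19 genes, of which 16 were present in at least 1 library and 6 in all 6. Ptprc, which encodes CD45, a heavily glycosylated phosphatase that galectins bind, had 1329.6, 1293 and 1622 RPM in MOG KO and 1781, 1147 and 1581 RPM in WT. Myh9, the myosin heavy chain that S100A4 binds, had 738, 495 and 653 RPM in MOG KO and 584, 748 and 1229 RPM in WT. The groups overlapped for both. Itgb1, the beta 1 integrin chain, had 544, 535 and 636 RPM in MOG KO and 661, 401 and 37.7 RPM in WT, and Capn2, a calpain, 16.9, 283 and 704 RPM in MOG KO and 642, 434 and 143 RPM in WT. Cacybp, which encodes a partner of S100A6, was low in WT replicate 2 alone, at 0.224 RPM. Of 12 partners tested 0 passed in edgeR, 4 were positive and 8 negative, with a median of -0.22.

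Of 24 other genes of effector Tregs, 22 were present in at least 1 library and 10 in all 6. Among 20 tested 0 passed in edgeR, 13 were positive and 7 negative, with a median of 0.20. Icos, a costimulatory receptor, had 987, 975 and 1018 RPM in MOG KO and 916, 822 and 915 RPM in WT, so that all 3 MOG KO libraries lay above all 3 WT libraries, where 10.5% of genes tested had groups that did not overlap (log2 fold change 0.10 ± 0.32, SE). Ccr2, a chemokine receptor, had 780.4, 821 and 1208 RPM in MOG KO and 777, 412 and 1134 RPM in WT. Itgae, the CD103 integrin chain, had 909, 201 and 797 RPM in MOG KO and 1095, 1149 and 489 RPM in WT, and Fgl2, a secreted suppressive protein, 579, 40.4 and 624 RPM in MOG KO and 500.0, 440.5 and 761 RPM in WT. Among 9 tested genes of resting Tregs 0 passed, 3 were positive and 6 negative, with a median of -0.46. Satb1, a chromatin organiser, had 715, 848 and 503 RPM in MOG KO and 292, 84.96 and 711 RPM in WT, with overlap. Tcf7, a transcription factor gene, was the 1 gene of that list with an unadjusted p under 0.05 in edgeR, where 5.11% of all genes tested were, and its adjusted p was 0.602. Tcf7 had 0.693, 1.15 and 1.74 RPM in MOG KO and 285, 333 and 93.8 RPM in WT.

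For each member present in all 6 libraries, the gene with the most similar pattern was sought among 3947 tested genes, by the root mean squared difference of log2(RPM + 1) values centred on each gene's mean. For S100a6 this was Arl6ip1 (0.073), for Lgals1 the immunoproteasome gene Psmb8 (0.079), for S100a10 the lamin B receptor gene Lbr (0.11), for Anxa2 the lymphocyte GTPase gene Gimap4 (0.11) and for Anxa6 the NADPH oxidase subunit gene Cyba (0.12). The matches of the more variable genes were looser, Rpsa for Ahnak (0.31) and Tcf25 for S100a11 (0.41). Rpsa, a ribosomal protein gene, had 463, 1931 and 723 RPM in MOG KO and 542, 1139.8 and 1710.1 RPM in WT, and so shared with Ahnak its high values in MOG KO replicate 2 and WT replicate 3. Tcf25 had 151, 524 and 831 RPM in MOG KO and 204, 341 and 492 RPM in WT, lowest in the libraries where S100a11 was lowest. With 6 libraries and 3947 candidates, such likeness is a description of these libraries.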

How the data were processed

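RNA of 500 lymph node Tregs per library was copied with the SMARTer V3 kit, amplified by 15 PCR cycles, tagged with NexteraXT and read as single 100-base reads, per the labels' protocols. There are no molecular identifiers. The authors deposited raw counts of reads in exons per gene, and the same data as RPM values, which the rescaled counts matched. STAR 2.3.1, R 3.2.2 and build mm10 are named per the submitters' processing notes; the sources used here do not give the counting tool, gene models or strand setting.

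The main test was that of edgeR 4.0.16 under R 4.3.3 (filterByExpr, TMM scaling, robust quasi-likelihood fit, genotype alone, Benjamini-Hochberg adjustment over 4088 genes, threshold 0.05). Positive log2 fold changes mean higher in MOG KO. The SE is the absolute log2 fold change over the square root of F and is approximate. On simulated data edgeR recovered known changes at a low spread but few of them at the spread of these libraries, so an absence of calls says little. DESeq2 1.42.0, limma-voom (limma 3.58.1), other filters and scaling, a replicate block and leaving out each library were alternatives. All members are named; of each related list, members past the threshold or else up to 4 of highest mean RPM are named, and further genes named (Tcf7, Cacybp, the markers) were chosen after their values were seen; a gene that the rule names is not reported here. Members and lists were chosen with earlier results of these data known. Coordinates and exon lengths come from GENCODE M21 (GRCm38), matched by Entrez identifier for all 10 members.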

Additional observations from a re-analysis of the deposited data

How the results depend on the processing

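No member passed in any edgeR or limma-voom fit, nor did any gene. DESeq2 called 744 genes, and 210 when run on the genes tested in edgeR (an alternative chosen after seeing the data), and 1 member, Lgals3. The labels do not say whether replicate numbers pair the libraries. Correlations of same-numbered deviations over all genes tested were -0.023, -0.0031 and -0.018, and 0 of 6 libraries correlated best with their own number. With the wide spread of most genes, such correlations could miss a shared batch, so they do not settle whether the libraries were paired. With the replicate block 0 genes passed and 143 had an unadjusted p under 0.05. Small values changed sign. Anxa2 was 0.0065 without the filter, 0.23 in limma-voom and 0.069 with the replicate block, Anxa6 -0.11 and Lgals1 -0.059 in DESeq2, and Ahnak 0.14 in limma-voom. S100a4, 0.34 in the main model, was 1.36 in limma-voom and 1.42 with the replicate block. When single libraries were left out, log2 fold changes ranged from -0.34 to 0.82 for S100a4, -0.32 to 0.084 for S100a6, -0.25 to 0.33 for Anxa2, -0.13 to 0.31 for Anxa6, -0.035 to 0.42 for Lgals1 and -1.1 to 0.83 for Ahnak. S100a10 (0.079 to 0.75) and S100a11 (0.15 to 1.22) stayed positive. The median over tested members ranged from -0.073 to 0.58, the highest without WT replicate 3. Members present in all libraries numbered 7 at 1, 10 or 50 RPM, and 7 to 8 with any 1 library left out. The cause of these shifts was not tested. At this depth, values at or below 0.671 to 1.1 RPM, the limit of 3 counts in a library, cannot be told from 0.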
